A study of Mus musculus with 6 samples.

Results

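Complement is a set of plasma and cell-surface proteins that tag microbes, dying cells and immune complexes for removal. Its classical pathway starts when C1q binds a target, and the proteases that C1q carries cleave C4 and C2, whose fragments form an enzyme that cleaves C3. The alternative pathway reaches the same step with factor B and factor D, and factor D is adipsin, a protein known for its secretion by fat cells. Small fragments released from C3 and C5 act on receptors of myeloid cells. In adipose tissue, C1q and the fragment receptors are known mainly from macrophages, and C3, C4 and C2 from fibroblast-like and fat cells as well as from the liver, which supplies most plasma complement.

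The 9 genes described here encode the 3 chains of C1q (*C1qa*, *C1qb* and *C1qc*), the components *C2*, *C3*, *C4b* and *Cfb*, and the receptors *C3ar1* and *C5ar1*. They were taken by gene symbol from the 47729 genes in the RNA-Seq files of brown adipose tissue (BAT), each symbol was found once, and all 9 passed the filter on low counts that left 17668 genes to test. Wild-type male C57BL/6J mice were fed a high-fat diet (HFD, 45% in the label, n = 3) or a low-fat diet (LFD, named a standard rodent diet in the sample labels, n = 3) from 6 to 10 weeks of age, with no other treatment, and interscapular BAT of the right side was read by RNA-Seq from 1 end over 75 bases. Per the study's methods, each group's fattest, middle and leanest mouse by fat mass were used, and the labels number them 1 to 3 in each diet without saying which is which. Levels are given in TPM, the authors' length-corrected values with the same total in each mouse, and can be compared between genes. Diet differences are log2 fold changes of HFD over LFD from edgeR's quasi-likelihood test on rounded expected counts, and calls required an adjusted p under 0.01 together with an absolute log2 fold change above 1.5. Sets of 3 values are given in the order of replicates 1, 2 and 3.

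Each mouse had from 17156991 to 21603487 rounded counts in total. The defining brown adipocyte gene *Ucp1* was detected in every mouse, from 11.0 TPM in LFD replicate 2 to 4021 TPM in HFD replicate 2, and the 8 listed brown adipocyte markers, none at 0, summed to 1821 to 7273 TPM in HFD-fed and 294 to 2057 TPM in LFD-fed mice, with all 8 fold changes above 0. The libraries also differed in other tissue. Skeletal muscle markers (10 genes) summed to between 1733 and 11730.3 TPM in LFD-fed and between 6.66 and 176 TPM in HFD-fed mice, and all 10 were fully lower, that is, lower in every HFD-fed mouse than in any LFD-fed mouse. T and NK cell markers (8 genes, 7 of them tested) summed to 9.53 to 30.8 TPM in HFD-fed and 1.35 to 7.60 TPM in LFD-fed mice, and all 7 lay fully higher in HFD-fed mice in log2 CPM, as 6.72% of all genes tested did, beside 9.23% fully lower. Fibroblast markers (7 genes) summed to 1765 TPM in LFD replicate 1 and to 26285 TPM in LFD replicate 3. Hepatocyte markers (8 genes) summed to no more than 11.9 TPM in any mouse, and *Apoa1*, *Ttr*, *Fga*, *Fgb* and *Ahsg* were listed at 0 in at least 1 mouse. In whole tissue, fewer cells of a type and less RNA per cell cannot be told apart.

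None of the 9 genes was called different between the diets. The receptors *C3ar1* and *C5ar1* had the highest positive fold changes and *C4b*, *C2* and *C3* the largest negative ones. The log2 fold changes of the C1q chains ran from 0.01 to 0.44. The median log2 fold change of the 9 genes was 0.01, that of *C1qa*, beside -0.05 over all genes tested. By edgeR's quasi-likelihood test, 0 of the 9 genes were called, where 0.0% of all genes tested were called higher and 0.0% lower, with adjusted p-values from 0.404 for *C2* to 0.998 for *C1qa*. DESeq2 with default settings also called 0 of the 9, with a smallest adjusted p of 0.109, while it called 0.531% of all genes with an adjusted p higher and 1.53% lower. At an unadjusted p under 0.05, edgeR gave 0 of the 9 genes higher and 2 lower (*C2* and *C4b*), beside 3.86% of all genes higher and 6.62% lower. With the replicate number as a block, 2 were higher (*C3ar1* and *C5ar1*) and the same 2 were lower, beside 8.75% and 8.76% of all genes. The smallest adjusted p of the 9 genes under the block was 0.147, for *C5ar1*.

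**Figure D1:**
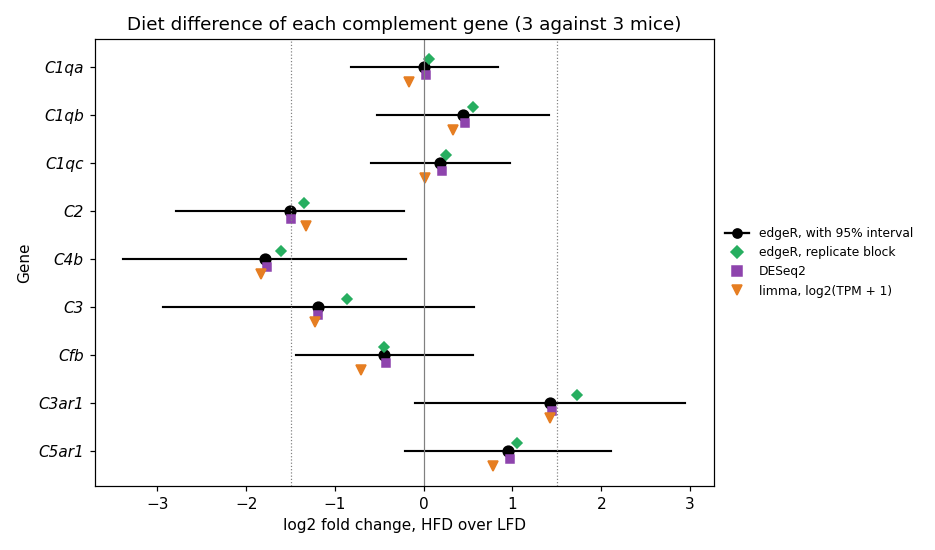
Log2 fold change of each gene on the horizontal axis, HFD over LFD, with edgeR's estimate and its 95% interval in black, the estimate with the replicate block (diamond), DESeq2 (square) and limma on log2(TPM + 1) (triangle); dotted lines mark an absolute log2 fold change of 1.5. The intervals of *C2* (-2.79 to -0.22) and *C4b* (-3.39 to -0.20) lie below 0 before adjustment, and that of *C3ar1* runs from -0.10 to 2.95. The estimates of the C1q chains run from 0.01 to 0.44, with intervals on both sides of 0.

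The 3 chains of C1q are made together into 1 molecule that recognises targets. Their genes lie side by side on the reverse strand of chromosome 4 (GRCm38, GENCODE M21) within 18675 bases. *C1qb* (ENSMUSG00000036905) runs from 136880129 to 136886187, *C1qc* (ENSMUSG00000036896) from 136889804 to 136893065 and *C1qa* (ENSMUSG00000036887) from 136895917 to 136898803. The 250 bases before the RefSeq start sites (GRCm38.p6, reverse strand, written along the gene) are shown for the neighbours *C1qb*, at chr4:136886201-136886450, and *C1qc*, at chr4:136892915-136893164, because the chains had like patterns over the mice. Part of the *C1qc* window lies inside the GENCODE M21 model, which ends at 136893065. Capitals mark GAGGAA, a core letter sequence of sites of the myeloid factor PU.1, on either strand.
C1qb: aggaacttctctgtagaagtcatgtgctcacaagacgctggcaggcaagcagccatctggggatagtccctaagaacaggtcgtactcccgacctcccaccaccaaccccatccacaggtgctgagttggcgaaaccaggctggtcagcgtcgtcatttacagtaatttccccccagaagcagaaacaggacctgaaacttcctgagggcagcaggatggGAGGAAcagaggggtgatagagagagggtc
C1qc: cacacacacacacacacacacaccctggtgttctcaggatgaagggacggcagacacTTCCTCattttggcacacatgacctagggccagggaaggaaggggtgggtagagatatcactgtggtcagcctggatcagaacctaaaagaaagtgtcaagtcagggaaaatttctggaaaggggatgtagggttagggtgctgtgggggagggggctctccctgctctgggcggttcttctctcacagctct
*C1qb* had GAGGAA from 30 to 25 bases before its start, and *C1qc* had its reverse complement from 193 to 188 bases before. Of all 32851 promoter windows of this length, 23.2% hold GAGGAA on either strand, so its presence is common. The same table has no entry for *C1qa*, *C2*, *C4b* or *Cfb*.

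*C1qa*, which encodes the A chain, had 185, 214 and 268 TPM in HFD-fed and 103, 370.4 and 390.4 TPM in LFD-fed mice. *C1qb*, for the B chain, had 205, 268 and 365 TPM in HFD-fed and 77.2, 316 and 413 TPM in LFD-fed mice. *C1qc*, for the C chain, had 147, 200.2 and 245 TPM in HFD-fed and 80.6, 267 and 320.1 TPM in LFD-fed mice. In TPM, for each chain, LFD replicate 1 was the lowest of the 6 mice and LFD replicate 3 the highest, and all 3 HFD-fed mice lay between them. The log2 fold changes were 0.01 for *C1qa* (standard error, SE, 0.35, 95% interval -0.82 to 0.83, edgeR adjusted p = 0.998), 0.44 for *C1qb* (SE 0.41, interval -0.53 to 1.42, adjusted p = 0.800) and 0.19 for *C1qc* (SE 0.33, interval -0.60 to 0.97, adjusted p = 0.918). The sign of *C1qa* depended on the scaling, with -0.16 on the log2(TPM + 1) scale, and without LFD replicate 1 the log2 fold changes of the 3 chains were -0.26, 0.11 and -0.08. Between 1389 and 6424 reads were counted on each chain in every mouse, and the posterior SD that RSEM gave for their counts, a measure of reads it could not place with certainty, was no more than 0.0334% of the count.

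The 12 macrophage markers summed to 1742 to 4111.5 TPM in HFD-fed and 471.9 to 4073 TPM in LFD-fed mice, with LFD replicate 1 lowest here too, and no marker of this list was at 0. On the log2 CPM scale, the mean of the 3 C1q chains lay 1.42, 0.94 and 0.92 above the mean of the 12 markers in HFD-fed, and 1.17, 1.22 and 1.12 above it in LFD-fed mice. The mean difference was 1.10 ± 0.29 (SD, n = 3) under HFD and 1.17 ± 0.05 (SD, n = 3) under LFD, and the diets overlapped. Fold changes in the list lay on both sides of 0, with 6 of 12 above. *Adgre1* (log2 fold change 1.36), *Cd68* (1.72), *Fcgr1* (2.06) and *Ctss* (1.47) were fully higher in HFD-fed mice in log2 CPM but overlapped in TPM, *Cd163* (-1.53) and *Lyve1* (-1.34), which mark resident macrophages, were fully lower on both scales, and *Csf1r* (-0.03) and *Mrc1* (-0.16) overlapped, none of them called by edgeR (adjusted p between 0.190 and 0.989). Of the 12 markers 4 were thus fully higher and 2 fully lower in log2 CPM, beside 6.72% and 9.23% of all genes tested. The part of macrophage number in the C1q levels was not tested.

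**Figure D2:**
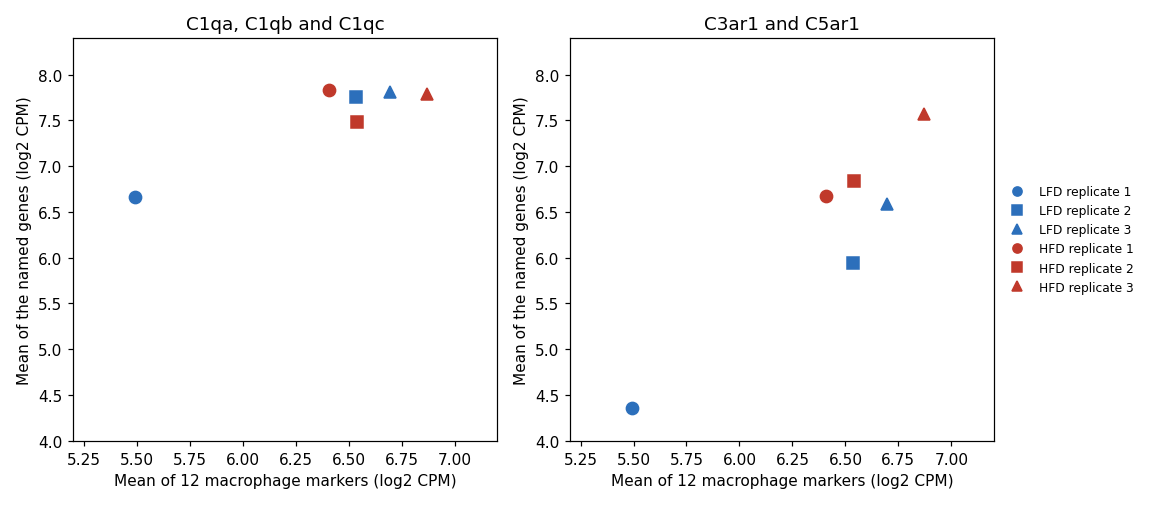
Mean log2 CPM of *C1qa*, *C1qb* and *C1qc* (left) and of *C3ar1* and *C5ar1* (right) against the mean log2 CPM of 12 macrophage markers, 1 point per mouse. LFD replicate 1 is lowest on all 3 means (5.49 for the markers, 6.66 for C1q, 4.36 for the receptors), and at like marker levels the receptors lie higher in HFD-fed mice while C1q does not separate the diets.

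The proportion of the chains to each other differed between mice. The ratio of *C1qb* to *C1qa* TPM was 1.11, 1.25 and 1.36 in HFD-fed and 0.750, 0.854 and 1.06 in LFD-fed mice, so the diets did not overlap, with a log2 difference of 0.50 (exact two-sided permutation p = 0.1, the smallest that 3 mice against 3 allow). The ratio of *C1qb* to *C1qc* was 1.401, 1.34 and 1.49 in HFD-fed and 0.957, 1.18 and 1.29 in LFD-fed mice, again without overlap (log2 difference 0.31, exact two-sided permutation p = 0.1), while the ratio of *C1qc* to *C1qa* overlapped (log2 difference 0.18, exact two-sided permutation p = 0.2). Over the 6 ratios between the 9 genes that were computed, which were chosen after the values were seen, the lowest adjusted exact permutation p was 0.2.

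**Figure D3:**
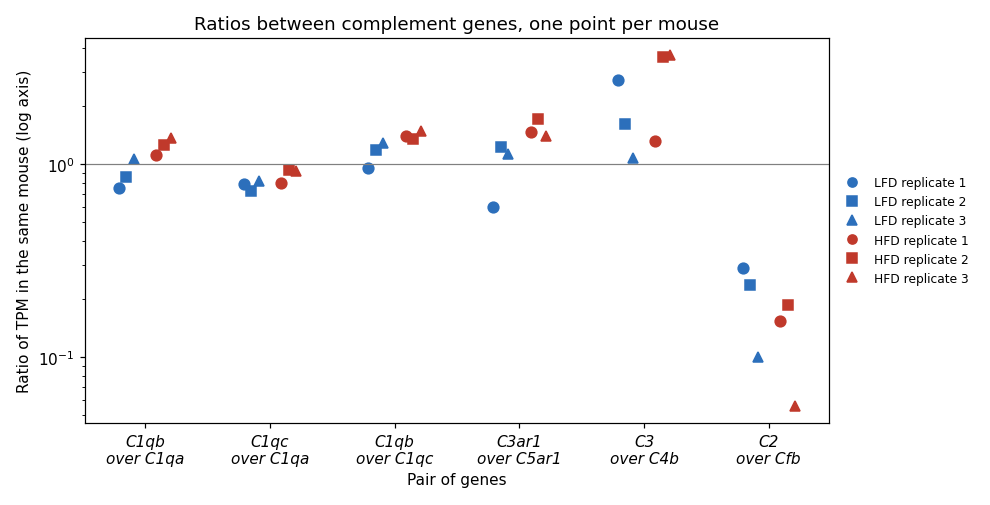
Ratio of the TPM of 2 genes in the same mouse on a log axis, for 6 pairs of genes, 1 point per mouse. The ratios of *C1qb* to *C1qa*, *C1qb* to *C1qc* and *C3ar1* to *C5ar1* are higher in all 3 HFD-fed than in all 3 LFD-fed mice, and the other 3 ratios overlap.

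Among the 17665 other genes tested, the 5 whose log2 CPM followed the mean of the C1q chains most closely over the 6 mice were *Runx1* (Pearson r of 0.989), *Gm26674* (0.988), *Papd4* (0.987), *M1ap* (0.984) and *Gm15853* (0.982). These values are a description over 6 mice that share 1 low sample, LFD replicate 1, and 77 genes had an r of at least 0.95. *Runx1*, which encodes a transcription factor of blood cells, ranged from 1.61 to 22.5 TPM, and *Papd4* from 9.12 to 27.7 TPM. *Gm26674*, *M1ap* and *Gm15853* stayed at or below 0.860 TPM in all mice. Of the macrophage markers, *Lyz2* (0.942) and *Csf1r* (0.929) were nearest to C1q, and *Cd163* (-0.34), *Lyve1* (-0.57) and *Timd4* (-0.64) ran opposite to it.

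*C2* and *C4b* encode the components that the C1 proteases cleave to build the classical C3 convertase. *C4b* (ENSMUSG00000073418, on chromosome 17, from 34728380 to 34743882) stood at 135, 139 and 83.9 TPM in HFD-fed and 253, 1083 and 268 TPM in LFD-fed mice. All HFD-fed mice were below all LFD-fed mice in TPM, as was so for 2 of the 9 genes (*C2* and *C4b*) and for 11.6% of all genes tested on the log2(TPM + 1) scale, while 0 of the 9 and 1.65% of all genes were fully higher. LFD replicate 2 stood far above the rest. The log2 fold change was -1.79 (SE 0.67, 95% interval -3.39 to -0.20, edgeR adjusted p = 0.422), and -0.998 without LFD replicate 2. On the log2 CPM scale HFD replicate 1 (8.92) lay just above LFD replicate 3 (8.83). *C2* (ENSMUSG00000024371, on chromosome 17, from 34862604 to 34898265) stood at 9.06, 11.0 and 7.58 TPM in HFD-fed and 19.2, 52.3 and 14.2 TPM in LFD-fed mice. Its levels were also lower in every HFD-fed mouse in TPM, with HFD replicate 1 (4.45) above LFD replicate 3 (4.13) in log2 CPM. The log2 fold change of *C2* was -1.51 (SE 0.54, 95% interval -2.79 to -0.22, edgeR adjusted p = 0.404), and -0.98 without LFD replicate 2. Both genes were lower in the HFD-fed mouse in all 3 same-numbered pairs, a description only, since no label pairs the mice and no share over all genes is given.

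*C3* encodes the central component that both pathways cleave. The gene (ENSMUSG00000024164) lies on chromosome 17 from 57203970 to 57228136, and the 250 bases before its RefSeq start (GRCm38.p6, chr17:57228137-57228386, reverse strand) are shown as those of the most abundant of the 9 genes. They hold none of the 4 letter patterns searched on both strands, which were GAGGAA, the interferon-stimulated response element (2 copies of GAAA set 2 bases apart), TTCNNNGAA and TATAAA, found in 23.2%, 2.98%, 7.02% and 12.4% of all windows, so there are no capitals.
C3: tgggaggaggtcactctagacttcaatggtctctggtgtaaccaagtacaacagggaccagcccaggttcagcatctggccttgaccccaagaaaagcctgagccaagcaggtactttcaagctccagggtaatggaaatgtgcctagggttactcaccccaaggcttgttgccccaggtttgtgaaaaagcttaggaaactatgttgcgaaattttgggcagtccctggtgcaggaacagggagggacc
*C3* had 177, 500.1 and 307 TPM in HFD-fed and 689.7, 1746 and 287 TPM in LFD-fed mice. LFD replicates 1 and 2 lay above all HFD-fed mice, and LFD replicate 3 lay among them. The log2 fold change was -1.19 (SE 0.74, 95% interval -2.94 to 0.56, edgeR adjusted p = 0.657), -0.61 without LFD replicate 2 and -1.66 without LFD replicate 3. *Cfb* (ENSMUSG00000090231, chromosome 17 from 34856374 to 34862518), for factor B of the alternative pathway convertase, had 58.7, 59.1 and 135 TPM in HFD-fed and 66.1, 222 and 141 TPM in LFD-fed mice. The diets overlapped, and the log2 fold change of -0.44 (SE 0.42, 95% interval -1.44 to 0.55, edgeR adjusted p = 0.807) was smaller than those of *C2*, *C3* and *C4b*. A difference between *Cfb* and these genes was tested for *C2* alone, whose ratio to *Cfb* overlapped between the diets (log2 difference -0.70, exact two-sided permutation p = 0.4). The ratio of *C3* to *C4b* overlapped too (log2 difference 0.62, exact two-sided permutation p = 0.3).

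LFD replicate 2, the highest mouse for *C2*, *C3*, *C4b* and *Cfb*, was not the highest for fibroblast markers, which summed to 8981 TPM there and to 2760 to 4779 TPM in HFD-fed mice, with 7 of 7 fold changes below 0. Adipocyte markers summed to 15079, 13081 and 3849 TPM in LFD-fed mice and to 6867, 7329 and 4874 TPM in HFD-fed, with 7 of 7 below 0 and 0 of 7 without overlap. No marker of either list was at 0. The adipocyte sum and *C3* were both low in LFD replicate 3 and higher in the other LFD-fed mice. Skeletal muscle markers summed to 5017, 11730.3 and 1733 TPM in LFD-fed and 40.1, 176 and 6.66 TPM in HFD-fed mice, so that LFD replicate 2 was highest and LFD replicate 3 lowest of the LFD-fed mice, as for *C2* and *C3*. The part of these tissues and cells in the levels of *C2*, *C3* and *C4b* was not tested. The hepatocyte gene *Alb* was at 0.03 to 6.70 TPM, against 83.9 to 1083 TPM of *C4b* and 177 to 1746 TPM of *C3*.

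**Figure D4:**
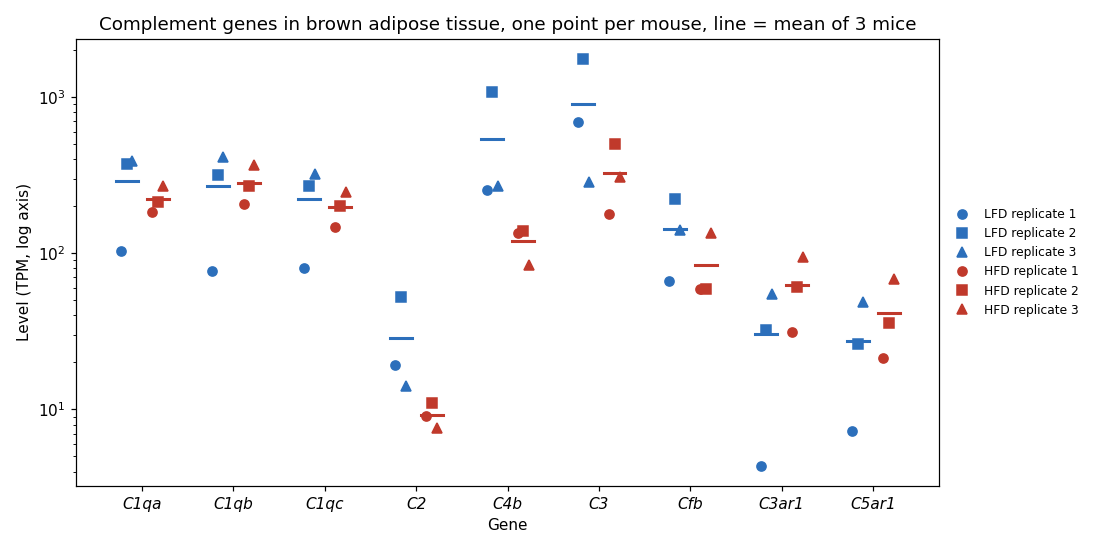
Level of each gene in TPM on a log axis, 1 point per mouse, with a line at the mean of the 3 mice of a diet. *C4b* and *C2* are lower in all 3 HFD-fed mice, *C3* and *Cfb* overlap, the C1q chains of the HFD-fed mice lie between those of LFD replicate 1 and LFD replicate 3, and LFD replicate 1 is lowest for *C3ar1* (4.37 TPM) and *C5ar1* (7.29 TPM).

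Reads of *C2* and *Cfb* are shared with *Gm20547*, a gene model annotated across both. The 2 genes are 85 bases apart, and all 3902 exonic bases of *Gm20547* lie in exons of *C2* (42.4%) or *Cfb* (57.6%). RSEM assigned to *Gm20547* between 15.7% (HFD replicate 3) and 29.9% (LFD replicate 1) of the reads of the 3 models, and the posterior SD of its count was 4.24% to 8.52% of the count, against 1.60% to 4.10% for *C2* and 1.36% to 2.86% for *Cfb*. Its own log2 fold change was -0.92 (SE 0.39, edgeR adjusted p = 0.484). With the 3 summed as 1 gene the log2 fold change was -0.67 (edgeR adjusted p = 0.644), which lies between those of *C2* and *Cfb*. *C2* had 243 to 1515 counts and *Cfb* 1851 to 6020. As *C2* is the smallest part of the sum, the sum cannot show how read sharing affects its fold change. *C4a*, the near-identical copy of *C4b*, held no more than 0.735% of the reads of both, and summing them left the log2 fold change of *C4b* at -1.79. By the posterior SD, the values of *C2* and *Cfb* carry more uncertainty of read assignment than those of *C4b*, *C3* and the C1q chains.

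*C3ar1* and *C5ar1* encode the receptors of the C3a and C5a fragments, which draw and activate myeloid cells. *C3ar1* (ENSMUSG00000040552, on chromosome 6, from 122847138 to 122856161) stood at 31.2, 60.8 and 94.5 TPM in HFD-fed and 4.37, 32.1 and 54.5 TPM in LFD-fed mice. HFD replicate 1 lay below LFD replicates 2 and 3 in TPM, whereas in log2 CPM, where TMM factors correct for composition, all HFD-fed mice (7.36, 7.62 and 8.21) lay above all LFD-fed mice (4.39, 6.49 and 7.07). It was the only 1 of the 9 genes without overlap on that scale, where 6.72% of all genes tested lay fully higher and 9.23% fully lower (exact two-sided permutation p = 0.1, the smallest the design allows). The log2 fold change was 1.42 (SE 0.64, 95% interval -0.10 to 2.95, edgeR adjusted p = 0.505), 1.72 with the replicate block (adjusted p = 0.159) and 0.96 without LFD replicate 1. *C5ar1* (ENSMUSG00000049130, on chromosome 7, from 16246743 to 16259540) stood at 21.2, 35.7 and 68.0 TPM in HFD-fed and 7.29, 26.1 and 48.4 TPM in LFD-fed mice, which overlapped. Its log2 fold change was 0.95 (SE 0.49, 95% interval -0.21 to 2.11, edgeR adjusted p = 0.564), and 0.58 without HFD replicate 3. Both receptors were higher in the HFD-fed mouse in all 3 same-numbered pairs. No label pairs the mice and no share over all genes is given, so this is a description.

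The windows before the RefSeq starts of *C3ar1* (chr6:122856158-122856407) and *C5ar1* (chr7:16259339-16259588), both on the reverse strand, are shown because these were the 2 genes with the highest fold changes. The GENCODE M21 models end at 122856161 for *C3ar1* and at 16259540 for *C5ar1*. Most of the *C5ar1* window thus lies inside its GENCODE M21 model. Capitals mark TATAAA, the only one of the 4 patterns found, which stood in *C3ar1* from 235 to 230 bases before the start.
C3ar1: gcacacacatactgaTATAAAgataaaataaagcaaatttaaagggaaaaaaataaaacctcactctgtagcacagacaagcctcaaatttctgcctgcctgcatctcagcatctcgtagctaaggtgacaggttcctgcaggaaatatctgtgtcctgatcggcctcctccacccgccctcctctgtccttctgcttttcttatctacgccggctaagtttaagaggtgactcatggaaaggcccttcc
C5ar1: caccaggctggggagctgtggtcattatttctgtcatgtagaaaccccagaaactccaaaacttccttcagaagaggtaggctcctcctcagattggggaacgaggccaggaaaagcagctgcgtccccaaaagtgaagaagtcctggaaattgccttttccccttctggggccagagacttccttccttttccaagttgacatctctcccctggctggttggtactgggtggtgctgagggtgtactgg
A match here is a run of letters and was not tested as a binding site.

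The mean log2 CPM of the receptors lay 0.27, 0.29 and 0.70 above the mean of the 12 macrophage markers in HFD-fed and 1.13, 0.59 and 0.11 below it (-1.13, -0.59 and -0.11) in LFD-fed mice. The difference between the diets was 1.03, where it was -0.07 for C1q. *Adgre1*, *Cd68*, *Fcgr1* and *Ctss*, the markers fully higher in HFD-fed mice in log2 CPM though not in TPM, had fold changes of the size of that of *C3ar1*. The other markers had lower log2 fold changes, from 0.54 for *Lyz2* to -1.53 for *Cd163*, and only 6 of the 12 lay above 0. The part of macrophage number or type in the receptor levels was not tested. The ratio of *C3ar1* to *C5ar1* was 1.47, 1.71 and 1.39 in HFD-fed and 0.600, 1.23 and 1.13 in LFD-fed mice, without overlap (log2 difference 0.69, exact two-sided permutation p = 0.1). Neutrophils also carry *C5ar1*, and neutrophil markers (9 genes, 6 of them tested) summed to 23.9, 24.8 and 166 TPM in HFD-fed and 10.1, 40.7 and 149 TPM in LFD-fed mice, with *Ly6g*, *Camp* and *Ngp* at 0 in at least 1 mouse. Replicate 3 was highest for *C5ar1* and for these markers in both diets. It was also highest in both diets for *C3ar1* and for the summed macrophage markers (4111.5 TPM under HFD and 4073 TPM under LFD). The part of neutrophils in the *C5ar1* level was not tested.

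By mean TPM over all 6 mice the order was *C3* (618), *C4b* (327), *C1qb* (274), *C1qa* (255), *C1qc* (210.0), *Cfb* (114), *C3ar1* (46.2), *C5ar1* (34.4) and *C2* (18.9). Neighbours were compared within mice by exact two-sided sign-flip permutation tests, adjusted over 8 comparisons, for which 6 mice allow no raw p under 0.0312. The neighbours were set by the mean TPM of these same 6 mice with both diets pooled, so the tests are a description and no separate support for the order. At that floor, 1 pair alone could not pass 0.05 after adjustment. *C3* was above *C4b*, *C1qa* above *C1qc* and *C1qc* above *Cfb* in 6 of 6 mice, each with an adjusted exact p of 0.0833, which does not pass 0.05. *C4b* and *C1qb* could not be ordered, with *C4b* above in 2 of 6 mice (adjusted exact p = 0.875). *C1qb* and *C1qa* (4 of 6 mice), *Cfb* and *C3ar1* (5 of 6), *C3ar1* and *C5ar1* (5 of 6) and *C5ar1* and *C2* (4 of 6) had adjusted exact permutation p-values between 0.125 and 0.75. The order of the diet means differed. *C4b* had rank 2 in LFD-fed (mean 535 TPM) and rank 5 in HFD-fed mice (119.5 TPM). *C2* was above *C5ar1* in the LFD mean (28.6 and 27.3 TPM) and last in the HFD mean (9.21 TPM). LFD replicate 2 was highest for both *C4b* (1083 TPM) and *C2* (52.3 TPM). In LFD replicate 3, *C4b* (268 TPM) lay below *C3* and the 3 C1q chains (287 to 413 TPM). *C2* (14.2 TPM) lay below *C5ar1* (48.4 TPM) in that mouse.

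The rest of the system was described with 48 other complement genes, listed by role, of which 31 passed the filter on low counts. Of the 31 tested, edgeR called 0, where it called 0.0% of all genes higher and 0.0% lower. At an unadjusted p under 0.05 it gave 2 higher and 10 lower, beside the 3.86% and 6.62% of all genes (6 higher and 12 lower with the replicate block, beside 8.75% and 8.76%). DESeq2 called 4 of them, all lower in HFD-fed mice, among them *C6*, *C7* and *Masp1*, where it called 1.53% of all genes lower and 0.531% higher. In log2 CPM, 5 lay fully higher (*Cfp*, *Cpn2*, *C5ar2*, *Itgax* and *Itgb2*) and 8 fully lower, beside 6.72% and 9.23% of all genes, and the median log2 fold change of the 31 was -0.47 (-0.05 over all genes). On the log2(TPM + 1) scale 2 lay fully higher (*Cpn2* and *Itgax*) and 7 fully lower, beside 1.65% and 11.6% of all genes. *Cfp*, *C5ar2*, *Itgb2*, *Cd55* and *Vsig4* overlapped in TPM. The 17 that were not tested had at most 1.15 TPM and 21 counts in any mouse, and they include *Hc*, the gene of C5, and *C9* and *C8b* of the membrane attack complex, *Mbl1* and *Mbl2* of the lectin pathway, and the regulator *Cfi*. *C8b*, *Mbl1* and *Mbl2* were listed at 0 in all 6 mice.

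Of the 7 tested genes that start the classical and lectin pathways, 6 had a fold change below 0, 3 were lower at an unadjusted p under 0.05 (6.62% of all genes) and 3 lay fully lower in log2 CPM (9.23% of all genes). Of all 17668 genes, 9605 had a fold change below 0. *C1s1* and *C1ra*, for the proteases carried by C1q, had log2 fold changes of -0.95 (SE 0.39, edgeR adjusted p = 0.467) and -1.04 (SE 0.31, adjusted p = 0.312). *C1s1* had 49.2, 79.8 and 69.6 TPM in HFD-fed and 89.1, 233 and 119 TPM in LFD-fed mice, and *C1ra* 15.5, 28.1 and 26.95 TPM and 32.6, 89.8 and 49.3 TPM. *C1s1* and *C1ra* thus did not overlap between the diets in TPM or log2 CPM, while the C1q chains did. For *C1s1* the gap in log2 CPM was narrow, with HFD replicate 1 at 7.04 and LFD replicate 3 at 7.08. On DESeq2's normalised counts *C1s1* overlapped. A difference between the proteases and the C1q chains was not tested. *Fcna*, for ficolin A, overlapped (-0.64, SE 0.54, edgeR adjusted p = 0.778). *Masp1*, a lectin pathway protease, had 0.0900 to 0.260 TPM in HFD-fed and 0.780 to 2.15 TPM in LFD-fed mice, on 5 to 98 counts, with a log2 fold change of -3.32 (edgeR adjusted p = 0.178, DESeq2 adjusted p = 5.36e-04).

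*Cfd*, the gene of adipsin, had the highest mean TPM of all complement genes, with 1054, 458.9 and 351 TPM in HFD-fed and 9101, 10849.5 and 1674 TPM in LFD-fed mice. Its TPM was lower in every HFD-fed mouse, and the log2 fold change was -3.26 (SE 1.09, 95% interval -5.86 to -0.67, edgeR adjusted p = 0.372, DESeq2 adjusted p = 0.0106), with an overlap in log2 CPM. *Cfp* encodes properdin, which stabilises the alternative convertase and is made by myeloid cells. *Cfp* was higher in every HFD-fed mouse in log2 CPM but overlapped in TPM, with a log2 fold change of 0.72 (SE 0.39, edgeR adjusted p = 0.593). *C4a* had -1.26 (SE 0.56, edgeR adjusted p = 0.499) on 15 to 111 counts.

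Of the terminal components that build the membrane attack complex, 3 of 7 were tested. *C6* had 0.800, 0.620 and 0.190 TPM in HFD-fed and 5.24, 18.8 and 2.00 TPM in LFD-fed mice, without overlap, and a log2 fold change of -3.67 (SE 0.94, edgeR adjusted p = 0.243, DESeq2 adjusted p = 0.00113). *C7* had 0.610, 1.94 and 0.280 TPM and 25.1, 40.2 and 1.84 TPM, with LFD replicate 3 among the HFD-fed mice, and a log2 fold change of -4.52 (SE 1.26, edgeR adjusted p = 0.286, DESeq2 adjusted p = 7.9e-04). *C8g* overlapped, with a log2 fold change of 0.68 (edgeR adjusted p = 0.778).

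The soluble regulators (5 of 10 tested) had 4 fold changes below 0. *Serping1*, the inhibitor of the C1 proteases, did not overlap between the diets in log2 CPM (-1.12, SE 0.40, edgeR adjusted p = 0.397), and *Clu*, for clusterin, did (-0.95, edgeR adjusted p = 0.627). *Cpn2* lies outside the naming rule and was named after its values were seen, as 1 of the 2 genes with a fold change above 0 at an unadjusted p under 0.05. Its log2 fold change was 3.45 (SE 1.11, edgeR adjusted p = 0.353), and the TPM was 10.1, 17.2 and 6.62 in HFD-fed and 1.84, 0.0600 and 1.21 in LFD-fed mice.

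Membrane regulators protect the tissue's own cells. Of 8 listed, 6 were tested, with a median log2 fold change of 0.10 and 1 lower at an unadjusted p under 0.05 (6.62% of all genes). *Cr1l*, the rodent regulator Crry, had 40.7 to 75.6 TPM in HFD-fed and 56.6 to 82.6 TPM in LFD-fed mice, with a log2 fold change of 0.00 (95% interval -0.47 to 0.47, edgeR adjusted p = 1.00), the narrowest interval in the list. *Cd55*, for decay-accelerating factor, lay lower in every HFD-fed mouse in log2 CPM (-1.26, SE 0.49, edgeR adjusted p = 0.445) but overlapped in TPM. *Cd59a* overlapped (0.21, edgeR adjusted p = 0.966).

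Of the 7 other receptors, all were tested and 6 had fold changes above 0. *Itgb2* and *Itgam* together make complement receptor CR3 of myeloid cells. Their log2 fold changes were 1.42 (SE 0.63, edgeR adjusted p = 0.499) and 1.08 (SE 0.60, adjusted p = 0.605). *Itgb2* did not overlap in log2 CPM but did in TPM, and *Itgam* overlapped on both scales. *Cd93*, a surface protein of myeloid and endothelial cells first described as a C1q receptor, had 1.42 (SE 0.60, edgeR adjusted p = 0.480). *C5ar2*, the second C5a receptor, lies 2588 bases from *C5ar1* and, like *Vsig4* and *Itgax*, was named after its values were seen. At 0.560 to 4.99 TPM its log2 fold change was 1.33 (SE 0.42, edgeR adjusted p = 0.345), without overlap in log2 CPM but with overlap in TPM. *Vsig4*, a C3b receptor of resident macrophages, was the only receptor below 0, with -1.33 (SE 0.54, edgeR adjusted p = 0.465). On 15 to 95 counts, *Vsig4* did not overlap in log2 CPM but did in TPM.

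**Figure D5:**
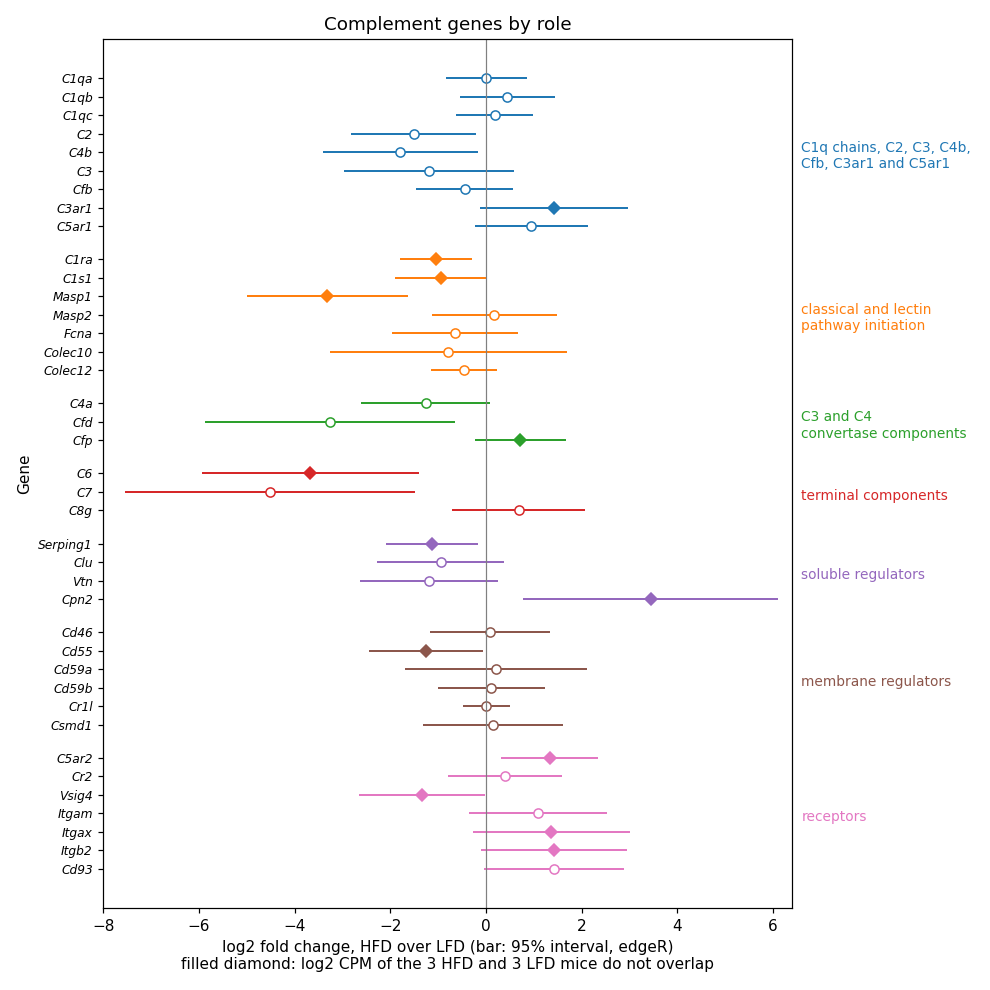
Log2 fold change (edgeR, HFD over LFD) of the 9 genes and of the other tested complement genes reported here, by role, with 95% intervals; filled diamonds mark genes whose log2 CPM do not overlap between the 3 HFD-fed and 3 LFD-fed mice. The receptors lie mostly above 0 (6 of 7), the initiation genes mostly below 0 (6 of 7), and the membrane regulators near 0 (median 0.10).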

How the data were processed

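Per the labels and methods, the authors trimmed reads with Trimmomatic (0.36) and quantified genes with RSEM (1.3.0) on GRCm38.p4 with Ensembl release 84; the aligner is not given in the sources used here. The deposited tables, 1 per mouse, hold expected counts (a read that matches several genes is divided between them), TPM, effective length and the posterior SD of each count. Expected counts were rounded and tested with edgeR (4.0.16, R 4.3.3) using filterByExpr, TMM and the quasi-likelihood test on the 3 HFD-fed and 3 LFD-fed mice, with adjustment over all 17668 genes tested. Log2 CPM used a prior count of 2. DESeq2 (1.42.0), which the authors also used (1.10.1), and limma (3.58.1) were alternatives. The procedure was run on simulated counts, where it had to recover large fold changes at a dispersion below the common dispersion of these data (0.201). That run does not show its power for differences of the size seen in these mice. Positions were matched by gene identifier to GENCODE M21 (GRCm38), and promoters by symbol to RefSeq (5 of 9 matched).

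All 9 genes are given in full. Of 48 other complement genes the text names, in each role, up to 3 with the highest mean TPM, with *C4a*, *Gm20547*, *Cfd* and those that edgeR or DESeq2 called. Values of 1 gene that this rule names are not reported here, though it stays in the counts. Genes and lists were chosen with earlier results of these data known. The labels give the same numbers 1 to 3 in both diets. Deviations from the diet means correlated between same-numbered mice (mean r of 0.416, 0.229 to 0.522), so the fit with the number as a block is given where it differs. This pairing comes from the data, not from a label. Each sample is a separate mouse, and 3 per diet limit precision more than depth does.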

Additional observations from a re-analysis of the deposited data

How the results depend on the processing

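Of 284 values recomputed under other settings, 263 either kept direction and call or, for values with no test, moved by less than the spread between mice. The fold changes of the 9 genes kept direction and call in 140 of 147, and edgeR called none of the 9 in any of them at the same thresholds. Since the main edgeR fit called 0.0% of all genes tested higher and 0.0% lower, a call that stays absent says little about these genes. Of the 263, 9 values near 0 changed sign, namely the median of the 9 genes (5), the C1q distance from the macrophage markers (2), and the log2 ratios of the diet means of *C1qa* (-0.37 in TPM, 0.01 in CPM with TMM factors) and *C1qc* (-0.17 and 0.19). The fold change of *C1qa*, close to 0, changed sign without mitochondrially encoded genes (-0.0017), without these and the skeletal muscle markers (-0.0021), and with limma on log2(TPM + 1) and log2(TPM + 0.1) (both -0.16), a scale on which the median of all genes was -0.18 rather than -0.05. With each mouse left out in turn it ranged from -0.26 to 0.20, that of *C1qc* from -0.08 (-0.0790, without LFD replicate 1) to 0.36, and the median of the 9 genes from -0.26 (without LFD replicate 1) to 0.20. Of the 9 genes, 0 lay fully higher and 2 fully lower with limma on either log2(TPM) scale, against 1 and 0 in log2 CPM. Of all genes tested, 1.65% and 11.6% did so on the log2(TPM + 1) scale, and 6.72% and 9.23% in log2 CPM. With 1 mouse left out, 1 to 2 were higher and 0 to 3 lower (3 lower without LFD replicate 3, 2 without HFD replicate 1). Fewer mice separate more easily. No share over all genes is given for these settings, so the counts are not read as a result about the 9 genes. At an unadjusted p under 0.05 in edgeR, 2 of the 9 genes were lower, and 2 of the other complement genes were higher and 10 lower. Of all genes, 3.86% were higher and 6.62% lower at that level. DESeq2 called 4 of the other complement genes lower, beside 1.53% of all genes. The cause of these shifts was not tested. Treating the replicate number as a block (median of the 9 genes 0.06 log2 units) changed no other call than the counts given above at an unadjusted p. With 3 mice per diet, the 95% intervals of the 9 genes are 1.56 to 3.50 log2 units wide from end to end.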
